A study of Homo sapiens with 12 samples.

Results

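The response described here is that of BT-549 cells, an established line from a basal-like breast cancer, to knockdown of PRKCD, the gene of protein kinase C δ (PKCδ). The transcripts of the cells were read with Illumina Human HT-12 v4 arrays, whose beads each bear copies of 1 probe. The samples were chosen by their labelled cell line, which gave 6 of the 12 samples of the series. Of these, 3 were cells transfected with a PKCδ siRNA (siPRKCD) and 3 were cells transfected with a control siRNA (siControl). The other 6 samples were MDA-MB-468 cells, a second basal-like line, with the same 2 treatments. Both groups of BT-549 cells had been grown in serum-containing medium with insulin, and by the general transfection protocol of the study both received 40 nM siRNA with a lipid reagent for 72 h. The knockdown was thus transient and the RNA came from whole cultures, and no source used here states whether the 3 replicates of a group were cultured apart. The p-values therefore measure the spread between samples within a group, pooled over the 4 groups of both lines. This spread may be technical. All 10105 genes with a probe detected at a detection p under 0.01 on at least 3 of the 6 BT-549 arrays are described, of 20046 genes with a probe on the array.

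PKCδ is a serine/threonine kinase that is activated by diacylglycerol without a need for calcium. It is known for roles on both sides of the balance between cell death and survival, depending on the cell, and for signalling towards the ERK kinases and the interferon response. An interferon response is the expression of antiviral genes that share a promoter element bound by interferon regulatory factors, and some cancer cells keep part of it switched on without added interferon.

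The arrays of BT-549 cells were close to each other. Within a group the signals of 2 arrays correlated across probes at 0.987 to 0.993 with siPRKCD and at 0.990 to 0.995 with siControl, and between the groups at 0.960 to 0.981. Fewer probes were detected with siPRKCD (15616 to 16595) than with siControl (16640 to 17263), with no overlap. The label of the line was checked against markers. Of 6 mesenchymal markers 5 were detected on all 6 arrays (VIM, CDH2, SPARC, COL1A2 and ZEB1), while the probe for FN1 was detected on none. Of 8 epithelial markers 6 were detected on no array, CLDN4 on 1, and CDH1 on all 6. The receptor genes ESR1 and PGR were detected on no array and ERBB2 on all 6. Of 15 markers of blood, endothelial and liver cells 10 were detected on no array, among them PTPRC, CD3D, PECAM1 and HBB, LYZ was detected on 3, and ALB, CD14, CD68 and PPBP on all 6. Of the 5 that could be tested, ALB was higher with siPRKCD (mean log2 signal 8.12, against 7.52 with siControl, limma adjusted p = 0.00168) and the other 4 did not pass the test. Their part in the results was not tested.

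PRKCD, the target of the siRNA, had a log2 signal of 6.89, 6.67 and 7.01 with siPRKCD, against 7.71, 7.73 and 7.76 with siControl. The groups did not overlap, and the gene was 1.83-fold lower with siPRKCD (log2 fold change -0.87, standard error 0.11, limma adjusted p = 4.47e-05). Detection held on 1 of the 3 siPRKCD arrays and on all 3 siControl arrays, so that the level with siPRKCD lay near the background of the array. Background correction made the fall larger, with a log2 fold change of -1.95 by neqc. The PKC family and the related PRKD kinases had 8 tested members of 11 on the array. Of these 1 was higher (12.5%), 2 were lower (25.0%) and 5 did not pass the test. Of all genes tested 13.3% were higher and 17.1% lower. The conventional member PRKCA had a log2 signal of 9.73, 10.17 and 9.54 with siPRKCD and 10.20, 10.26 and 10.12 with siControl. These groups overlapped at the siPRKCD array of 10.17. The call (log2 fold change -0.38, limma adjusted p = 0.0371) was lost under median centring and without siPRKCD replicate 1 or 3 or siControl replicate 1 or 2. The PRKCA call was also lost with background correction, without the detection filter and with the 6 BT-549 arrays alone. PRKCE, which like PKCδ needs no calcium, had a log2 fold change of 0.35 (limma adjusted p = 0.0109), a call that was lost under median centring and without siControl replicate 3. It was detected on 2 of the 3 siControl arrays. PRKCI, PRKCH, PRKCB, PRKD2 and PRKD3 lay between -0.16 and 0.10 on the log2 scale and did not pass the test.

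Of the 10105 genes 3075 (30.4%) passed the test at a limma adjusted p under 0.05, 1347 higher (13.3%) and 1728 lower (17.1%) with siPRKCD. Most of these changes were small, with 1733 under 0.5 on the log2 scale, 1164 from 0.5 to 1 and 178 of at least 1, a 2-fold change. Of the 178, 62 were higher (0.614% of the genes) and 116 lower (1.15%). The median log2 fold change was 0.45 among the genes called higher, -0.49 among those called lower and -0.009 over all genes tested. The arrays of the groups did not overlap for 2094 genes that were higher (20.7%) and 2398 that were lower (23.7%) with siPRKCD. The balance of the calls depended on the scaling of the arrays, since 43.8% of the calls were higher after quantile normalization and 21.8% after median centring (402 higher, 1444 lower). Whether cells of a given state were fewer or held less of an RNA cannot be told apart in these bulk samples.

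**Figure D1:**
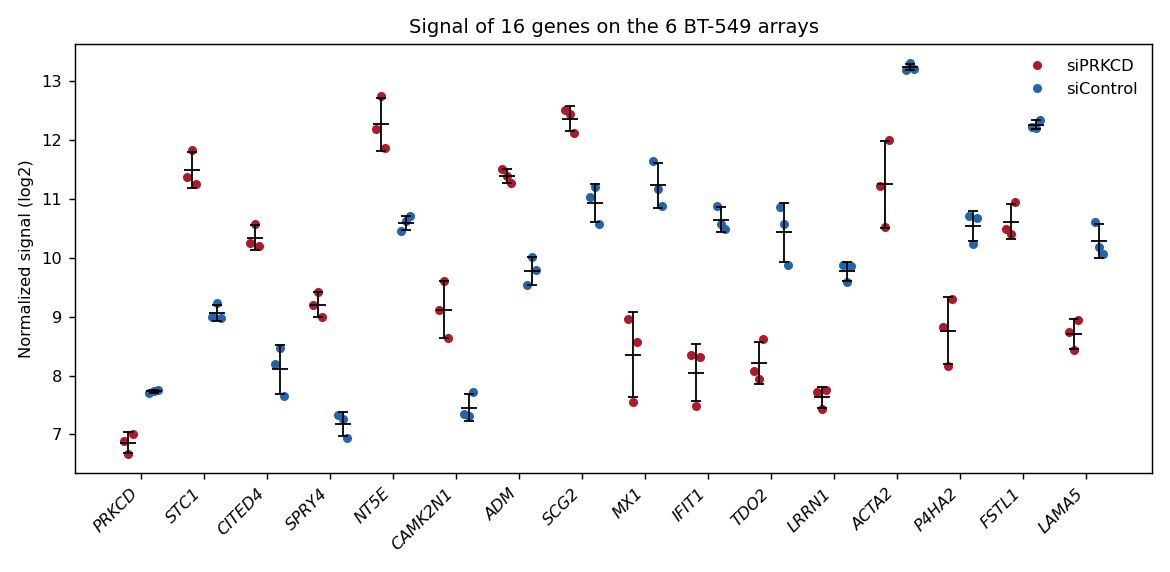
Log2 normalized signal of 16 genes on the 6 BT-549 arrays. Points are arrays, with siPRKCD in red on the left of each pair and siControl in blue on the right, and bars are the mean and SD of 3 arrays. The 16 genes are the target and genes with large changes, and their groups do not overlap.

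Most interferon response genes were lower with siPRKCD, by up to 7.34-fold. Of 53 tested genes of this list 41 were lower with siPRKCD (77.4%), none was higher and 12 were not called, with a median log2 fold change of -0.74 against -0.01 over all genes. MX1, a GTPase that blocks virus replication, had a log2 signal of 8.95, 7.55 and 8.57 with siPRKCD, against 11.64, 11.18 and 10.88 with siControl. It was 7.34-fold lower (log2 standard error 0.26, limma adjusted p = 1.83e-06), which was the largest change of all genes tested in either direction. IFIT1, a binder of viral RNA, had 8.35, 7.48 and 8.32 with siPRKCD and 10.89, 10.58 and 10.49 with siControl, and was 6.07-fold lower (standard error 0.17, limma adjusted p = 1.33e-07). For both genes the lowest array was siPRKCD replicate 2, and every siPRKCD array lay more than 1 log2 unit under every siControl array.

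The other IFIT genes were lower as well. IFIT2 had 8.06, 7.54 and 7.83 with siPRKCD and 9.92, 10.07 and 9.16 with siControl (log2 fold change -1.91). IFIT3 had 7.15, 6.90 and 7.09 with siPRKCD and 8.32, 8.32 and 8.04 with siControl (log2 fold change -1.18), and its 2 further probes gave -1.04 and -0.76. IFI44 averaged 8.09 ± 0.37 with siPRKCD and 10.05 ± 0.39 with siControl (SD, n = 3 each, log2 fold change -1.96, limma adjusted p = 3.77e-06). The groups of all 3 genes stood apart, although IFIT3 was detected on 2 of the 3 siPRKCD arrays. ISG15, a ubiquitin-like protein, had 10.80, 9.29 and 10.32 with siPRKCD and 11.32, 10.77 and 11.05 with siControl (log2 fold change -0.91, standard error 0.25, limma adjusted p = 0.0117). Here the highest siPRKCD array overlapped the lowest siControl array, and the call was lost without siControl replicate 1. The sensors of viral RNA IFIH1 and RIGI had log2 fold changes of -0.84 and -0.78, the kinase EIF2AK2, which blocks translation when it meets double-stranded RNA, one of -0.76, and the RNA editor ADAR one of -0.75 (limma adjusted p from 3.5e-05 to 7.73e-05). IFIH1 was detected on 2 of the 3 siPRKCD arrays. Of the antigen presentation genes in the list, the peptide transporter TAP1 was lower (log2 fold change -1.02), as were the immunoproteasome subunits PSMB9 (-0.49, detected on 2 of the 3 siPRKCD arrays) and PSMB8 (-0.44), with -0.17 from a further PSMB9 probe, whereas HLA-B (-0.35), HLA-E (-0.29), HLA-F (-0.26) and HLA-C (-0.11) did not pass the test. IFITM1 (-0.83), IFI27 (-0.80), IFI6 (-0.76) and BST2 (-0.61) did not pass the test either, with standard errors of 0.30 to 0.39.

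**Figure D2:**
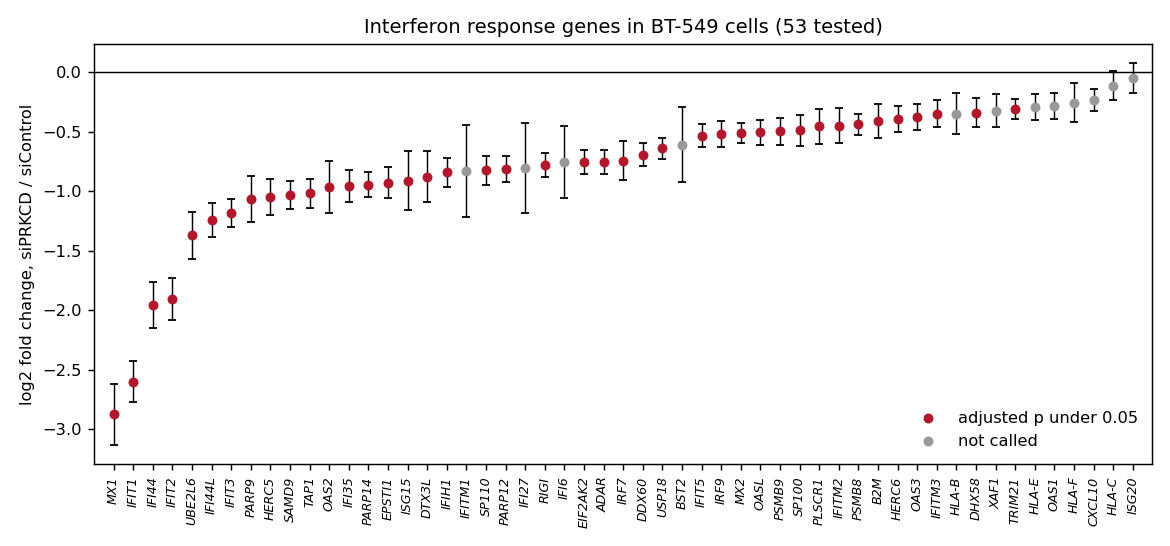
Log2 fold change, siPRKCD over siControl, of the 53 tested interferon response genes in BT-549 cells, ordered by size. Points are limma estimates and bars their standard errors, with called genes in red and genes that did not pass the test in grey. All 53 estimates are below 0, from -2.88 for MX1 to -0.05 for ISG20.

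The upstream machinery of this response moved in both directions. Of 18 tested genes for interferon production and interferon receptors, 4 were higher (22.2%) and 5 lower (27.8%), against 13.3% and 17.1% of all genes tested. Their median log2 fold change was -0.10, and under median centring none was higher and 4 were lower. The adaptor STING1, which passes on the detection of DNA in the cytosol, had a log2 signal of 7.89, 7.58 and 7.80 with siPRKCD, against 9.36, 8.97 and 8.18 with siControl (log2 fold change -1.08, limma adjusted p = 0.00063). The receptor-bound kinase TYK2 had a log2 fold change of -0.78 (limma adjusted p = 0.000445). IRF3, the factor that switches on interferon genes, and the adaptor TICAM1 had log2 fold changes of 0.46 and 0.48, and both calls were lost under median centring. A further TICAM1 probe gave 0.15. IRF7 (-0.74) and IRF9 (-0.52) were lower, and a further IRF7 probe gave -0.11. The guanylate-binding proteins, a family of GTPases induced by interferon γ, divided: GBP1 (log2 fold change -1.54) and GBP2 (-1.70) were lower, and GBP5 (0.44) was called higher, but not under median centring nor without siPRKCD replicate 1 or siControl replicate 3.

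Promoters of the interferon genes are shown because the element that these genes share can be read in them. A script searched 250 bases before to 50 bases after each RefSeq transcription start for the core of the interferon-stimulated response element, GAAANNGAA, on both strands. RefSeq promoters were found for 44 of the 53 genes. Of their 59 promoters 36 (61.0%) held the core, against 6.63% of the 12043 promoters of all genes tested and 8.11% of all 35116 promoters in the table. The list holds known interferon response genes, so this share describes the list and not the response to siPRKCD. Of the 46 promoters of its members called lower 28 held the core (60.9%), near the share of the whole list. The following promoters are given 5′ to 3′ in GRCh38.p14 with each core in capitals. In the IFIT1 promoter (chr10:89392373-89392672, plus strand) and the shown IFIT3 promoter (chr10:89332279-89332578, plus strand) the cores lie on the opposite strand, 2 of the IFIT3 cores overlap, and in the ISG15 promoter (chr1:1013247-1013546, plus strand) 3 cores overlap each other.
IFIT1: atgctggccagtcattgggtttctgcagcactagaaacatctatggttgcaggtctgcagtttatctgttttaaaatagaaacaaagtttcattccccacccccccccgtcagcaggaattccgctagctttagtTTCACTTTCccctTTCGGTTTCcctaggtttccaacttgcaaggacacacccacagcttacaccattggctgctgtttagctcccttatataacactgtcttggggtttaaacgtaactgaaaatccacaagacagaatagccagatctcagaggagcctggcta
IFIT3: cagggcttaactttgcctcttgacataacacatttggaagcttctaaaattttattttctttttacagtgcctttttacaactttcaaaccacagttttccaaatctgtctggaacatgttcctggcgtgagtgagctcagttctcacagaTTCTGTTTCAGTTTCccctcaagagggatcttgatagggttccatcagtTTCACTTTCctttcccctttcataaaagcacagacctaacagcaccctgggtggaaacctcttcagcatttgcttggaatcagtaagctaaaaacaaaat
ISG15: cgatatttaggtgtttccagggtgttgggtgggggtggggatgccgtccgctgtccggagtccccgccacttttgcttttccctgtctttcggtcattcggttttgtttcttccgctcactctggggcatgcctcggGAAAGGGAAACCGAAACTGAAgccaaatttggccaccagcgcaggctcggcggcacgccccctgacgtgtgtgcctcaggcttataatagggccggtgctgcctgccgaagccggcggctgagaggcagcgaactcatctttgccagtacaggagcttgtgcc

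The cores of IFIT1 began 115 and 102 bases before the start, those of IFIT3 99, 93 and 50 bases before it, and those of ISG15 113, 107 and 101 bases before it. Of the 3 MX1 promoters in the table, 1 had its 2 cores just after the start, at bases 12 and 18, and another had 1 core 195 bases before it. A match is a description of the letters and no measure of binding. Of the 116 genes that were at least 2-fold lower 86 had promoters in this search, and 19 of their 123 promoters held the core (15.4%). Without the interferon list 7 of 106 promoters held it (6.60%). Among the genes at least 2-fold higher 5 of 53 promoters held it (9.43%).

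Several of the largest falls lay outside the interferon list. TDO2, tryptophan 2,3-dioxygenase, which opens the ring of tryptophan, had a log2 signal of 8.07, 7.95 and 8.62 with siPRKCD, against 10.86, 10.57 and 9.87 with siControl. It was 4.67-fold lower (log2 standard error 0.20, limma adjusted p = 1.69e-06), and another of its probes gave a log2 fold change of -1.12. LRRN1, a leucine-rich repeat membrane protein, had 7.72, 7.42 and 7.75 with siPRKCD and 9.87, 9.58 and 9.86 with siControl, and was 4.41-fold lower (standard error 0.11, limma adjusted p = 1.14e-08). The transmembrane protein gene PRRT3 had a log2 fold change of -1.72 and CAT, the hydrogen peroxide-splitting catalase, one of -1.60, and a further CAT probe gave -1.59. Each of these genes was separated by group on all 6 arrays.

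Genes of the contractile cytoskeleton and of the mesenchymal state were lower as well. Of 41 tested genes of the mesenchymal and matrix list 23 were lower (56.1%) and 3 higher (7.32%), with a median log2 fold change of -0.48. Of all genes tested 17.1% were lower and 13.3% higher. ACTA2, smooth muscle α-actin, had 11.23, 10.53 and 12.01 with siPRKCD and 13.20, 13.31 and 13.22 with siControl (3.97-fold lower, standard error 0.23, limma adjusted p = 1.36e-05). The siControl arrays lay close together, whereas the siPRKCD arrays spanned more than 1 log2 unit. The standard error also pools the MDA-MB-468 arrays, where ACTA2 had no detected signal, and may understate the spread in BT-549 cells. TAGLN, an actin-binding protein of the same cells, had 10.18, 9.59 and 10.68 against 11.52, 11.63 and 12.27 (log2 fold change -1.66, and -1.08 from a further probe), again without overlap. The calponin gene CNN2 (-0.91, and -0.20 from a further probe) was also lower, whereas VIM, which encodes vimentin, the intermediate filament of mesenchymal cells, had a mean of 14.22 with siPRKCD and 14.27 with siControl and did not pass the test. Of 17 tested tubulin genes 6 were lower (35.3%) and 1 higher (5.88%). The falls were led by the neuronal type tubulin TUBB3 (log2 fold change -1.15, limma adjusted p = 4.31e-06) and TUBB2A (-0.96).

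The largest rise was that of STC1, a secreted glycoprotein hormone. It had a log2 signal of 11.38, 11.84 and 11.26 with siPRKCD, against 9.0, 9.23 and 8.97 with siControl, and was 5.39-fold higher (log2 standard error 0.13, limma adjusted p = 1.14e-08). CITED4, a coactivator that binds CBP and p300, had 10.25, 10.58 and 10.20 with siPRKCD and 8.19, 8.47 and 7.66 with siControl (4.73-fold higher, standard error 0.16, limma adjusted p = 3.12e-07). Both stood at least 1 log2 unit clear of the other group on every array. SPRY4, an inhibitor of receptor tyrosine kinase signalling to ERK, had 9.20, 9.43 and 8.99 against 7.33, 7.26 and 6.95 (4.08-fold higher, limma adjusted p = 7.57e-08), and a further SPRY4 probe gave a log2 fold change of 0.62. CAMK2N1, an inhibitor of CaM kinase II, had 9.12, 9.60 and 8.63 with siPRKCD and 7.35, 7.31 and 7.71 with siControl (log2 fold change 1.66). SLC1A3, a glutamate transporter, had 9.92, 9.85 and 9.60 against 8.63, 8.34 and 8.0 (log2 fold change 1.47, limma adjusted p = 2.63e-06). Of 25 tested genes of ERK feedback and output 12 were higher (48.0%) and 2 lower, with a median log2 fold change of 0.41, against 13.3% higher of all genes tested. Of 16 tested dual-specificity phosphatases 3 were higher (18.8%) and 2 lower (12.5%), shares near those of all genes, with DUSP5 (0.92) and DUSP23 (0.65) higher and DUSP3 (-0.82) lower. The largest log2 fold change in the family, 1.66, was that of a member not named here.

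Secreted proteins fell more often than they rose. Over 3 lists of secreted proteins together, 60 of 183 tested genes were lower (32.8%, against 17.1% of all genes) and 26 were higher (14.2%, against 13.3%), with a median log2 fold change of -0.16. Within the class the lists differed in their counts. Of 93 tested growth factors, cytokines and hormones 21 were lower and 13 higher, of 46 proteases, protease inhibitors and matrix modifiers 16 lower and 8 higher, and of 46 structural matrix and basement membrane proteins 23 lower and 5 higher. Under median centring the 3 lists together had 57 lower and 10 higher, with 7, 1 and 2 higher in the lists in the same order. Leaving out 1 array moved the 8 higher proteases and modifiers to 3 without siControl replicate 1, 4 without siPRKCD replicate 2 and 5 without siControl replicate 3 or siPRKCD replicate 3. The 5 higher structural proteins were 3 without siControl replicate 2 or siPRKCD replicate 2.

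Secreted hormones and peptides were among the larger rises. GDF15, a stress-induced member of the TGF-β family, had 11.18, 11.29 and 10.61 with siPRKCD and 9.48, 9.91 and 8.76 with siControl (log2 fold change 1.64, limma adjusted p = 5.86e-05). ADM, which encodes the vasodilator peptide adrenomedullin, had 11.50, 11.40 and 11.28 against 9.53, 10.01 and 9.79 (log2 fold change 1.62, limma adjusted p = 7.62e-07). SCG2, secretogranin of neuroendocrine granules, had 12.52, 12.45 and 12.13 with siPRKCD and 11.03, 11.20 and 10.58 with siControl (log2 fold change 1.43). All 6 arrays divided by group for each of these. ANGPTL4, an inhibitor of lipoprotein lipase, had a log2 fold change of 1.29, and its 2 further probes gave 0.27 and 0.55. The non-canonical Wnt ligand WNT5A had 0.89 and the cross-linking enzyme TGM2 had 1.05, where a further TGM2 probe gave 0.07.

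Genes of the lists of secreted proteins, which include enzymes that modify matrix proteins, were among the larger falls. P4HA2, a collagen prolyl hydroxylase, had 8.82, 8.17 and 9.30 with siPRKCD and 10.71, 10.24 and 10.67 with siControl (log2 fold change -1.78, limma adjusted p = 1.21e-05), and its 2 further probes gave -1.56 and -0.70. FSTL1, a secreted follistatin-like glycoprotein, had 10.50, 10.40 and 10.95 against 12.23, 12.22 and 12.35 (log2 fold change -1.65, limma adjusted p = 8.16e-07). LAMA5, a laminin chain of basement membranes, had 8.74, 8.44 and 8.94 with siPRKCD and 10.61, 10.19 and 10.07 with siControl (log2 fold change -1.58). The groups were clear of each other in all 3. Of 5 tested laminin chains 4 were lower (80.0%, against 17.1% of all genes tested). The others were LAMB2 (-0.81), LAMC1 (-0.65) and LAMB1 (-0.59, and -0.12 from a further probe). SULF2, which removes sulfate from heparan sulfate and was detected on 2 of the 3 siPRKCD arrays, had a log2 fold change of -1.53, with -1.15 and -0.98 from 2 further probes, the collagen chain COL3A1 one of -1.14, thrombospondin THBS1 one of -1.13 and periostin, encoded by POSTN, one of -1.10. The Wnt antagonist SFRP2 had a log2 fold change of -0.91. Of 21 tested collagen chains 8 were lower (38.1%) and 2 higher (9.52%, against 13.3% of all genes tested). The transmembrane collagen COL13A1 had a log2 fold change of 1.13 (limma adjusted p = 0.000121).

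Over 5 lists of surface proteins 76 of 243 tested genes were lower (31.3%, against 17.1% of all genes) and 28 higher (11.5%, against 13.3%), with a median log2 fold change of -0.16, and under median centring 68 were lower and 17 higher. Adhesion molecules had the highest share of falls among the 5 lists, with 19 of 43 lower (44.2%) and 2 higher. Of receptor tyrosine kinases 6 of 17 were lower and 3 higher, of cytokine, TNF, TGF-β and Wnt receptors 17 of 68 lower and 12 higher, of G protein-coupled receptors and their regulators 11 of 42 lower and 4 higher, and of tetraspanins, CD antigens and other surface proteins 23 of 73 lower and 7 higher. The last list had 15 lower without siPRKCD replicate 2. Under median centring 7 of the cytokine and related receptors were higher.

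NT5E, the ectoenzyme CD73 that forms adenosine outside the cell, was the surface gene with the largest rise. Its log2 signal was 12.19, 12.75 and 11.87 with siPRKCD and 10.46, 10.62 and 10.71 with siControl (3.19-fold higher, log2 standard error 0.20, limma adjusted p = 1.55e-05). The metalloprotease ADAM19 had 10.67, 10.38 and 10.40 against 9.23, 9.38 and 9.46 (log2 fold change 1.13). The groups did not overlap for either gene. TNFRSF11B, the gene of osteoprotegerin, a soluble decoy in the TNF receptor family, had a log2 fold change of 1.08, the iron reductase STEAP3 one of 0.96, the tetraspanin CD82 one of 0.87 and the TRAIL receptor TNFRSF10B one of 0.80. A further CD82 probe gave 0.27 and a further TNFRSF10B probe 0.31. The receptors of interleukin 13 went opposite ways. IL13RA1, the signalling subunit, had 10.40, 9.80 and 10.56 with siPRKCD and 11.82, 11.67 and 11.48 with siControl (log2 fold change -1.40, limma adjusted p = 8.51e-06), and IL13RA2, which binds the cytokine as a decoy, had 8.18, 8.43 and 8.08 against 7.54, 7.58 and 7.52 (log2 fold change 0.68, limma adjusted p = 7.59e-05).

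Among the surface genes that fell, ACKR3, an atypical chemokine receptor, had 8.43, 8.24 and 8.34 with siPRKCD and 9.41, 9.37 and 9.66 with siControl (log2 fold change -1.14, limma adjusted p = 1.16e-06). Adhesion genes included the cadherins CDH3 (log2 fold change -1.11) and CDH11 (-1.02) and the neural cell adhesion molecules NCAM1 (-1.03) and NCAM2 (-0.92). TNFRSF19 had a log2 fold change of -1.0 and ERBB2, the HER2 receptor, one of -0.83. For each of these 7 genes all siPRKCD arrays lay under all siControl arrays. Ephrins and their receptors had 5 of 10 tested members lower, with the ligands EFNA1 (-0.96, and -0.44 from a further probe) and EFNB3 (-0.87) and the receptor EPHA4 (-0.64), and 1 higher, EPHA2 (0.56), whose call was lost under median centring. Without siControl replicate 1 the family had 3 lower.

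**Figure D3:**
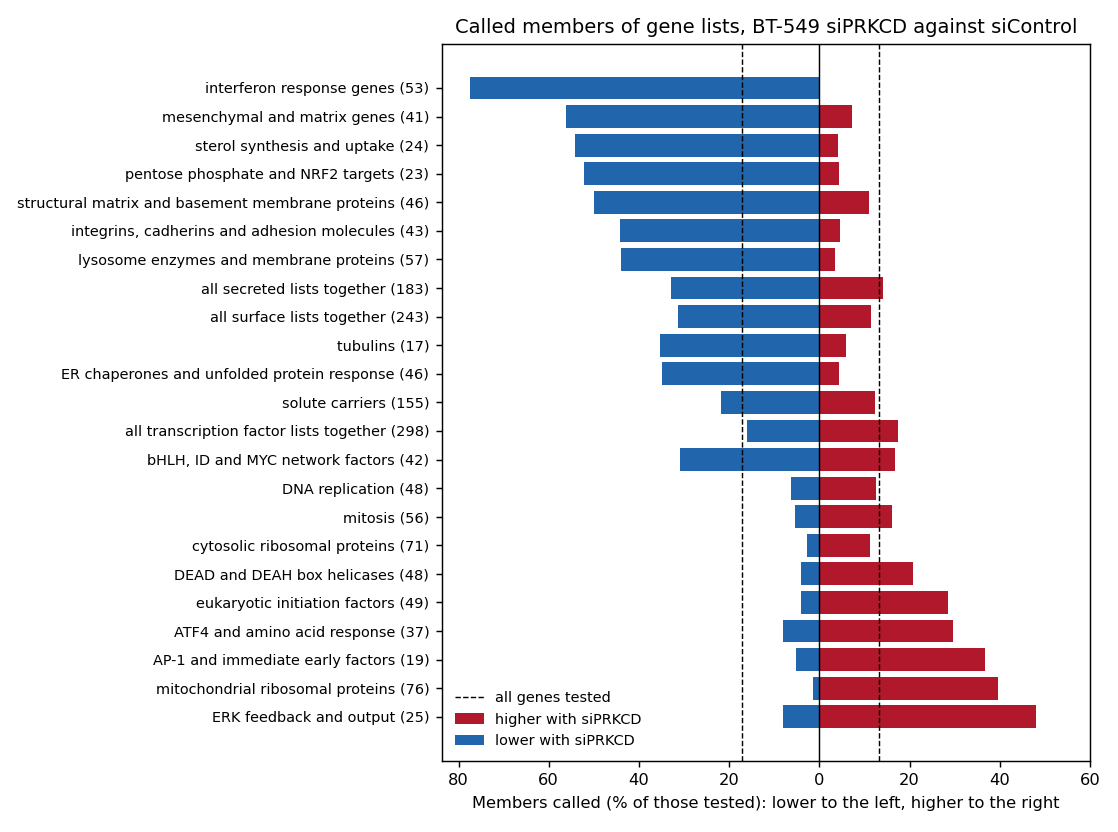
Share of tested members called lower (blue, to the left) and higher (red, to the right) with siPRKCD in 23 gene lists, with the number of tested members in brackets. Dashed lines mark the shares over all genes tested, 17.1% lower and 13.3% higher. Interferon response genes have the highest share lower, 77.4%, and ERK feedback and output genes the highest share higher, 48.0%.

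Transcription factors and cofactors were called about as often in each direction. Of 298 tested over 10 lists, 52 were higher (17.4%) and 48 lower (16.1%), against 13.3% and 17.1% of all genes tested. Their median log2 fold change was 0.00, although median centring gave 21 higher and 44 lower. AP-1 and immediate early factors had 7 of 19 higher and 1 lower, and ATF, CREB and CEBP factors with their coactivators 7 of 25 higher and 2 lower. Median centring left 4 and 2 of these higher, without siControl replicate 2 the AP-1 list had 4 higher, and without siControl replicate 1 the ATF, CREB and CEBP list had 4 higher. ETV5, an ETS factor, had 10.53, 10.44 and 10.49 with siPRKCD and 9.30, 9.46 and 8.61 with siControl (log2 fold change 1.36, limma adjusted p = 2.25e-05), and a further probe gave 0.81. CBFB, the partner subunit of RUNX factors, had 9.98, 10.45 and 10.18 against 8.98, 8.92 and 9.26 (log2 fold change 1.15), and a further probe gave 0.31. KLF2, a Krüppel-like factor, had 9.99, 9.88 and 9.92 with siPRKCD and 8.84, 8.94 and 8.78 with siControl (log2 fold change 1.08, limma adjusted p = 4.45e-06). In all 3 the groups were apart. The AP-1 subunit FOSL1 (log2 fold change 1.05), the small MAF factor MAFF (0.92) and MYB (0.92) were higher too, and JUND (-0.66) was the AP-1 factor that was lower.

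The bHLH, ID and MYC network list had more members lower, 13 of 42 (31.0%), than higher, 7 of 42 (16.7%), with 4 higher under median centring. Of all genes tested 17.1% were lower and 13.3% higher. The ID proteins, which bind bHLH factors and keep them off DNA, were lower together. ID2 had 10.41, 10.27 and 10.83 with siPRKCD and 11.62, 11.92 and 11.76 with siControl (log2 fold change -1.26, limma adjusted p = 2.25e-05), ID3 had 11.57, 11.34 and 11.65 against 12.67, 12.51 and 12.56 (log2 fold change -1.06), and ID1 had a log2 fold change of -0.74. No array of ID2 or ID3 overlapped the other group. MXD4, a MAX-binding repressor, had a log2 fold change of -1.06. The inhibitory SMADs parted, with SMAD6 at -0.98 (limma adjusted p = 0.00034) and SMAD7 at 0.89 (limma adjusted p = 0.000114). The clock gene PER2 (0.79) and the Notch target HEY1 (0.70) were higher, and ATF5 (-0.81) and SREBF1 (-0.84, and -0.51 from a further probe), the factor for fatty acid synthesis genes, were lower.

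Genes of lipid synthesis, antioxidant defence and the lysosome were mostly lower among those called. Of all genes tested 17.1% were lower and 13.3% higher. Of 24 tested genes of sterol synthesis and uptake 13 were lower (54.2%) and 1 higher, a count of lower genes that was 8 under median centring and 7 without siControl replicate 2. HMGCS1, which makes the HMG-CoA from which cholesterol is built, had 9.69, 9.50 and 9.53 with siPRKCD and 11.16, 11.02 and 10.66 with siControl (log2 fold change -1.37, limma adjusted p = 9.17e-06). FASN, fatty acid synthase, had 11.01, 10.35 and 10.80 against 12.37, 12.48 and 11.31 (log2 fold change -1.34, standard error 0.28, limma adjusted p = 0.00215), with siControl replicate 3 near the siPRKCD arrays. LSS, lanosterol synthase of the same pathway as HMGCS1, had a log2 fold change of -1.44. Of 23 tested pentose phosphate and NRF2 target genes 12 were lower (52.2%) and 1, KEAP1 (0.74), the repressor of NRF2, was higher. The pentose phosphate enzyme PGD had a log2 fold change of -1.49. Heme oxygenase HMOX1 fell by 1.19 on the log2 scale, and quinone reductase, NQO1, fell by 1.18, with -0.84 from a further probe. Of 57 lysosome genes 25 were lower (43.9%) and 2 higher, led by the protease CTSO (-0.93), the thioesterase PPT1 (-0.84) and the membrane protein SCARB2 (-0.83), and siControl replicate 1 bore on this count, which was 16 without it. Subunits of the proton pump that acidifies lysosomes had 7 of 15 lower and 1 higher, and 4 lower without siControl replicate 1, siControl replicate 2 or siPRKCD replicate 2, with neqc or with the 6 BT-549 arrays alone. In the promoters of the sterol list 11 motifs were searched for. The sterol regulatory element, TCACNCCAC on both strands, was in 1 of 29 promoters (3.45%, against 1.15% of the promoters of all genes tested). Of 2 HMGCS1 promoters given by RefSeq 1 is shown for its CCAAT boxes, and the other held none. These letters, known for binding NF-Y, were found on either strand in 19 of 29 promoters of the sterol list (65.5%) and in 35.7% of the promoters of all genes tested. The promoter shown is given 5′ to 3′ in GRCh38.p14 (chr5:43313363-43313662, minus strand), and both boxes, in capitals, lie on the opposite strand and read as ATTGG, 155 and 100 bases before the start.
HMGCS1: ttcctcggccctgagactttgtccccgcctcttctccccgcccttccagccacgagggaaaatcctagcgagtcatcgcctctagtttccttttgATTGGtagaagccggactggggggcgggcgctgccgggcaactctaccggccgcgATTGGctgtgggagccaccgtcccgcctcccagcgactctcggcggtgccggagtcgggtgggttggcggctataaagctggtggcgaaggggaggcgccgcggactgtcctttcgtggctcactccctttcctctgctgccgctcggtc

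Mitochondrial ribosomal proteins, initiation factors, DEAD and DEAH box helicases and nucleoporins had a larger share higher than the 13.3% of all genes, under quantile normalization. Of 76 tested mitochondrial ribosomal proteins 30 were higher (39.5%) and 1 lower, with a median log2 fold change of 0.30, and median centring left 4 higher and a median of 0.19. MRPS30 had 11.66, 11.64 and 11.62 with siPRKCD and 10.81, 10.71 and 10.60 with siControl (log2 fold change 0.93, limma adjusted p = 5e-06), and kept its call under median centring. Of 49 eukaryotic initiation factors 14 were higher (28.6%) and 2 lower, of 48 DEAD and DEAH box helicases 10 (20.8%) and 2, and of 20 nucleoporins 7 (35.0%) and 1. Median centring left 2, 1 and 3 higher in these families. The initiation factors had 7 higher without siControl replicate 1 or siPRKCD replicate 3 and 9 without siControl replicate 2 or siPRKCD replicate 2, and the helicases 4 without siControl replicate 1 and 6 without siControl replicate 2. Of 71 cytosolic ribosomal proteins 8 were higher (11.3%) and 2 lower (2.82%), a share higher that was under that of all genes, and 4 to 5 were higher without siControl replicate 1, 2 or 3 or siPRKCD replicate 3. Genes of the cell cycle changed little by count, with 6 of 48 DNA replication genes higher (12.5%) and 3 lower, and 9 of 56 mitosis genes higher (16.1%) and 3 lower. Median centring left 2 higher in each list. Without siControl replicate 1 they had 3 and 4 higher, and without siControl replicate 3 the replication list had 10. The replication licensing inhibitor GMNN had a log2 fold change of 0.90, the phosphatase CDC25A one of 0.84, with 0.35 from a further probe, and the kinase AURKA one of 0.45, a call that was lost under median centring. BIRC5, the gene of the mitotic and anti-apoptotic protein survivin, had a log2 fold change of -1.09, and a further probe gave -0.20.

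Several short and structural RNAs moved with the siRNA as well, and these classes were looked at after the values had been seen. The probe for 28S ribosomal RNA (RNA28SN5) had 11.88, 12.96 and 11.06 with siPRKCD and 9.60, 10.20 and 9.85 with siControl (log2 fold change 2.08, standard error 0.34, limma adjusted p = 0.000264), and a further probe gave 0.82. The 18S probe (RNA18SN5) had a log2 fold change of 0.28 and did not pass the test. Of 13 tested small nuclear RNAs, a class that includes the RNAs of the spliceosome, 11 were higher (84.6%) and 1 lower (7.69%). Their median log2 fold change was 0.69, and median centring left 7 higher and 1 lower. RNU6-1 had 12.14, 12.48 and 12.18 with siPRKCD and 11.46, 11.37 and 11.46 with siControl (log2 fold change 0.84, limma adjusted p = 6.66e-05). Small nucleolar RNAs, which guide the modification of other RNAs, had 23 of 94 higher (24.5%) and 4 lower (4.26%). Of all genes tested 13.3% were higher and 17.1% lower. Median centring left 6 and 3 of the small nucleolar RNAs, and 402 and 1444 of all 10105 genes. The 23 were 15 without siControl replicate 1, 14 without siPRKCD replicate 2 and 13 without siPRKCD replicate 1 or siControl replicate 3. Of 4 tested Y RNAs none was called, with a median log2 fold change of -0.25, and 1 was lower without siControl replicate 1. SNORD3D (1.57) and SNORD3C (1.5) are near-identical copies of the same RNA, whose signals may not be separate. Most of these RNAs lack a poly(A) tail, and the number of probes detected was also lower on the siPRKCD arrays, as given above. Their part in the other results was not tested.

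The signal of the probe bore on how often a gene was called. With the genes divided into 10 bins of equal size by mean signal over the 6 arrays, 3.66% were called higher and 6.73% lower in the lowest bin (log2 signal 6.79 to 7.09). The share called higher was greatest in bin 8 from the bottom (9.51 to 10.17), at 19.8% with 20.5% lower, and in the top bin (11.13 to 14.35) it was 12.2% with 16.8% lower. The median size of the called changes followed, from 0.34 on the log2 scale in the lowest bin to 0.53 in bin 7. No gene of the lowest bin was called with a 2-fold change, against 11 higher and 22 lower in bin 7 and 8 higher and 15 lower in the top bin. Signals of different probes are not amounts of RNA, so the bins order probes and not transcripts. Of the 1728 genes called lower 57 were detected on no siPRKCD array and 1551 on all 6 arrays, and of the 1347 called higher 19 were detected on no siControl array and 1286 on all 6. Among the 178 genes with a 2-fold change, 1 was detected on no siPRKCD array.

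**Figure D4:**
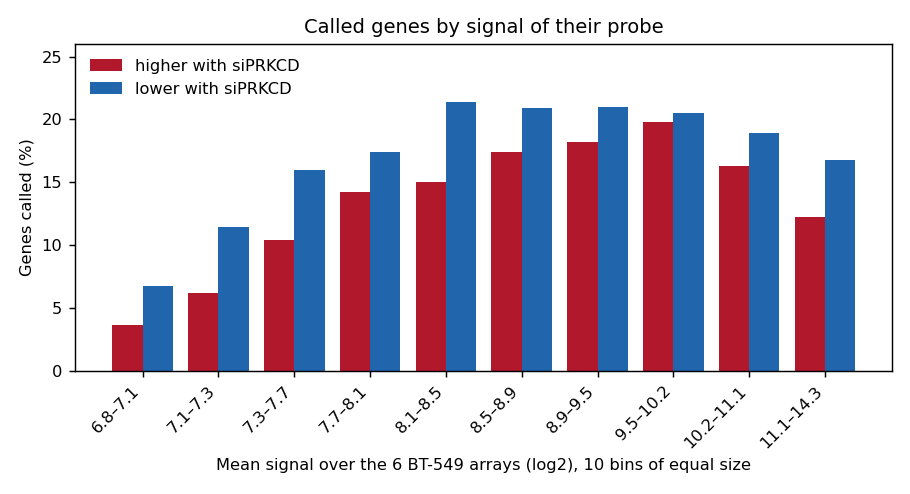
Share of genes called higher (red) or lower (blue) with siPRKCD, in 10 bins of equal size of the 10105 genes ordered by mean log2 signal over the 6 BT-549 arrays. The shares are smallest in the lowest bin, 3.66% and 6.73%, and the share called higher is largest in bin 8, 19.8%.

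Where the BT-549 response differed from that of MDA-MB-468 cells was tested gene by gene as the difference of the log2 fold changes, BT-549 minus MDA-MB-468, which passed a limma adjusted p under 0.05 for 894 of the 10105 genes (8.85%). Of the 62 genes at least 2-fold higher in BT-549 cells 40 differed between the lines, and 9 had no detected signal in MDA-MB-468 cells. Of the 116 at least 2-fold lower 68 differed, and 24 had no detected signal in MDA-MB-468 cells. A gene without signal in the other line can show no change there, and with those detected on at least 3 MDA-MB-468 arrays the counts were 27 and 44. Of these 178 genes, 25 of the higher and 52 of the lower ones were also called in the same direction in MDA-MB-468 cells, and 3 and 1 in the opposite direction.

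Among genes detected on at least 3 MDA-MB-468 arrays, the largest differences were those of CITED4, STC1, CD82 and SPRY4 on the side of higher values in BT-549 cells, together with S100A8, and of IFIT2, IFIT1, MX1 and SMAD6 on the other, together with IL7R. CITED4 had a log2 fold change of 2.24 in BT-549 cells and -0.65 in MDA-MB-468 cells (difference 2.90, limma adjusted p = 1.45e-06), and STC1 2.43 and -0.40 (difference 2.83, limma adjusted p = 2.23e-07). IFIT2 had -1.91 in BT-549 cells and 0.98 in MDA-MB-468 cells (difference -2.88, limma adjusted p = 4.81e-06). SMAD6 had -0.98 and 1.06 (difference -2.03, limma adjusted p = 6.66e-05). The alarmin S100A8 had 0.31 in BT-549 cells, which did not pass the test, and -3.60 in MDA-MB-468 cells, and the interleukin 7 receptor IL7R had -0.38, which did not pass the test, and 1.30. By list, the difference was called for 21 of 53 interferon response genes, 19 of 41 mesenchymal and matrix genes and 46 of 183 secreted genes. It was called for 1 of 24 sterol genes and 2 of 57 lysosome genes, and for 8.85% of all genes tested. These list counts were not limited to genes with a detected signal in MDA-MB-468 cells. PRKAR1A, the regulatory subunit of protein kinase A, had 9.95, 9.89 and 10.35 with siPRKCD and 11.61, 11.57 and 11.57 with siControl in BT-549 cells. Its log2 fold changes in the 2 lines were -1.52 and -1.53 (difference 0.01, limma adjusted p = 0.977), and a further PRKAR1A probe gave -1.68 in BT-549 cells. GBP2 had -1.70 and -1.79 (difference 0.09, limma adjusted p = 0.907), unlike GBP1, with -1.54 and -0.78 (difference -0.76, limma adjusted p = 0.0349).

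**Figure D5:**
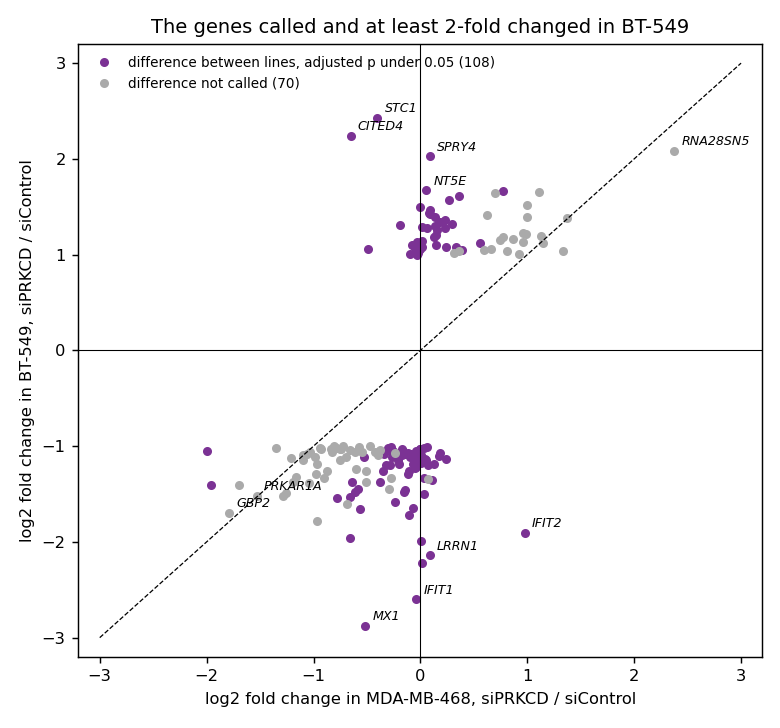
Log2 fold change, siPRKCD over siControl, in BT-549 cells (vertical) against MDA-MB-468 cells (horizontal) for the 178 genes called with a 2-fold change in BT-549 cells. Purple points are the 108 genes whose difference between the lines passed an adjusted p under 0.05, grey points the other 70, and the dashed line marks equal changes. STC1, CITED4, MX1, IFIT1 and IFIT2 lie far from the line, whereas PRKAR1A, GBP2 and RNA28SN5 lie near it.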

How the data were processed

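RNA of 12 samples was amplified, labelled and hybridized to Illumina Human HT-12 v4 BeadChips. The authors deposited the bead intensity of each of 47323 probes before normalization, with a detection p-value against each array's negative control beads, and a table of intensity values that the authors had normalized. The scanner software is not given in the sources used here. Array signals carry no read depth, and the number of arrays limits the precision.

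The intensity values were quantile-normalized over the 12 arrays and put on a log2 scale, which matched the deposited normalized table within 0.0083. Probes detected at p under 0.01 on at least 3 of the 6 BT-549 arrays were kept (16630), and 13406 of them had 1 gene symbol in the platform annotation. On the whole array 30113 probes had 1 symbol, 8 had several and 17202 had none. For each of 10105 genes the kept probe with the highest mean signal was used. A model with 4 groups (8 residual degrees of freedom) was fitted with limma 3.58.1 in R 4.3.3, and p-values were adjusted by the Benjamini-Hochberg method over all genes. A gene was called at an adjusted p under 0.05. The spread of each gene was pooled over the 4 groups. For genes without signal in MDA-MB-468 cells it includes arrays near the background, so their standard errors and p-values may be too small. All fold changes are siPRKCD over siControl. The difference between the lines was the interaction term. The script was tested on simulated data.

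Genes were named by rule: the targeted gene and 5 markers, the 15 largest rises and falls, up to 4 called members per list and direction, the 8 largest changes per class of secreted, surface and transcription factor genes, and the 5 largest differences between the lines. ISG15, IFIH1, RIGI, ADAR, TAP1, ID1, RNU6-1 and ALB and genes given as not called were added after their values were seen. The members and lists were chosen with earlier results of these data known, and the RNA classes after the values had been seen. Alternatives were the normalization, background correction, detection filter, probe rule, replicate block and leaving out each array.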

Additional observations from a re-analysis of the deposited data

Results flagged for a closer look

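The following named genes were set apart because the response to siPRKCD differed between BT-549 and MDA-MB-468 cells by a test of the difference itself (limma adjusted p under 0.05). Each value is the log2 fold change in BT-549 cells minus that in MDA-MB-468 cells, and 64 of the 119 named genes that were checked passed, 27 above 0 and 37 below 0. Of all genes tested 8.85% passed, but the named genes were in part chosen for the size of their change, so these shares are not comparable.

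Among genes with a higher value in BT-549 cells the differences above 1 were those of S100A8 (3.92), CITED4 (2.90), STC1 (2.83), SPRY4 (1.94), CD82 (1.88), NT5E (1.62), SNORD3C (1.5), SLC1A3 (1.37), SCG2 (1.35), SNORD3D (1.30), MYB (1.29), ANGPTL4 (1.27), ADM (1.26), ADAM19 (1.16), ETV5 (1.14), TGM2 (1.06) and TNFRSF11B (1.06). For S100A8 the change lay in MDA-MB-468 cells. Smaller differences above 0 were those of HEY1 (0.89), DUSP23 (0.89), CAMK2N1 (0.88), SMAD7 (0.88), PRKCD (0.84), KLF2 (0.83), IL13RA2 (0.81), STEAP3 (0.69), WNT5A (0.68) and PER2 (0.49). PRKCD had a log2 fold change of -0.87 in BT-549 cells and -1.72 in MDA-MB-468 cells. In BT-549 cells its signal with siPRKCD lay near the background, and neqc gave -1.95 there. The 2 values may therefore not compare the depth of the knockdown.

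The differences furthest below 0 were those of IFIT2 (-2.88), IFIT1 (-2.56), MX1 (-2.36), TDO2 (-2.24), LRRN1 (-2.23), SMAD6 (-2.03), ACTA2 (-2.00), IL7R (-1.68), PRRT3 (-1.62), FSTL1 (-1.58), THBS1 (-1.37), LAMA5 (-1.35), IFIT3 (-1.31) and IFI44 (-1.30). Next came ACKR3 (-1.20), COL3A1 (-1.18), POSTN (-1.10), TAGLN (-1.10), CDH11 (-1.06), HMOX1 (-0.99), TNFRSF19 (-0.97), ATF5 (-0.89), EPHA4 (-0.88), SULF2 (-0.88), NCAM2 (-0.87) and NCAM1 (-0.86). The others were PRKCA (-0.84), DUSP3 (-0.81), RIGI (-0.80), SFRP2 (-0.80), IRF7 (-0.79), GBP1 (-0.76), HMGCS1 (-0.73), TAP1 (-0.72), ERBB2 (-0.69), TYK2 (-0.69) and IRF9 (-0.66). TDO2, ACTA2, FSTL1, COL3A1, POSTN, SFRP2, ACKR3, CDH11, NCAM2 and TNFRSF19 had no detected signal in MDA-MB-468 cells, nor had ANGPTL4, ADAM19, TNFRSF11B and IL13RA2 among the genes above 0, so that no change could be measured there.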

How the results depend on the processing

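The number of called genes, 3075, was between 2769 and 3196 when the authors' normalized table, neqc, the 6 BT-549 arrays alone, a mean over probes, other detection filters, or the intensity trend and median centring over detected probes (both chosen after seeing the data) were used. Median centring gave 1846 called genes, 402 of them higher, and 348 differences between the lines. Background correction by normexp with median centring gave 1801, 314 and 376. Median centring moved the median of all genes to -0.08 and left every probe scaled by 1 factor per array. Leaving out 1 array gave 2149 to 2856 called genes, 904 to 1206 higher and 1245 to 1650 lower, 637 to 827 differences between the lines, 42 to 47 lists with more members lower than higher, and -0.95 to -0.78 for PRKCD. The lowest count came without siControl replicate 1. With the replicate block 3747 genes and 1454 differences were called. Deviations from the group mean correlated at 0.0102 to 0.2909 between arrays of the same number and at -0.3436 to 0.2262 between arrays of other numbers. Of the 3 siPRKCD arrays 1 was closest to its own number. The main fit did not pair arrays by number. PRKCD had a log2 fold change of -1.95 with neqc and -2.06 with normexp. No named gene changed direction in any setting. The cause of these differences was not tested. Signals near the background limit what can be seen of low genes, and 3 arrays against 3 cannot give an exact permutation p below 0.1.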

Other observations

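The lists of cell death and survival genes, of which single members are named above, had calls in both directions. Of 9 tested anti-apoptotic BCL2 family and IAP genes 3 were lower with siPRKCD and 1 higher, and of 20 tested pro-apoptotic BCL2 family and death receptor genes 4 were lower and 4 higher, against 17.1% lower and 13.3% higher of all genes tested. Of the pro-apoptotic list 1 was lower without siPRKCD replicate 2, 2 were lower without siPRKCD replicate 1 or siControl replicate 1 or 2, and 2 were higher without siPRKCD replicate 1 or 2 or siControl replicate 2 or 3. Amino acid response genes that are targets of ATF4 had 11 of 37 higher and 3 lower, with a median log2 fold change of 0.19, and 5 and 2 under median centring, and 7 were higher without siPRKCD replicate 1. Hypoxia and glycolysis genes had 9 of 34 higher and 5 lower, and 4 and 5 under median centring, and 3 were lower without siControl replicate 2 or siPRKCD replicate 2. Histone genes had 9 of 30 lower and 2 higher, with 5 lower without siPRKCD replicate 2. Solute carriers had 34 of 155 lower and 19 higher, with 19 lower and 12 higher without siControl replicate 1, 22 lower without siPRKCD replicate 2 and 6 higher under median centring. Of 16 microRNA genes none was called by limma after quantile normalization, and 1 was called higher after background correction with neqc. Zinc finger genes of the ZNF family had 33 of 297 higher and 29 lower, which is 11.1% and 9.76%, and 8 higher and 24 lower under median centring.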
